A study of Bos taurus with 4 samples.

Results

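The genes described here encode the kinases that build the meiotic spindle and the proteins of the spindle checkpoint. The set was chosen by name, with earlier results of these data known. It holds 10 genes: AURKA, AURKB, AURKC, PLK1, TPX2, BUB1, BUB1B, BUB3, MAD2L1 and TTK. The array names 15216 genes in all. Every probe whose annotated symbol is 1 of the 10 was taken, which gave 15 probes of 9 genes; TTK, the kinase that starts checkpoint signalling at unattached kinetochores, had no probe under that symbol. The samples were 4 separate pools of 200 denuded Bos taurus oocytes of the Holstein breed at the germinal vesicle stage, in which meiosis is still arrested, from slaughterhouse ovaries kept cold. Each pool's RNA, depleted of ribosomal RNA, was parted on poly(A)-binding beads into A-, which was not retained and which the labels give as tails of at most 50 nucleotides, and A150, which was eluted at 75 °C and which the labels give as tails of at least 150 nucleotides; RNA that came off in a first elution at 42 °C is not analysed here. A pool's A150 and A- shared a single two-colour array. A150 carried Cy5 on arrays 1 and 2, and the dyes were swapped on arrays 3 and 4, where A150 carried Cy3. No treatment is labelled, so the only contrast is between the 2 fractions of a pool.

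In oocytes many messages are made during growth and stored, and the length of the poly(A) tail is tied to whether a stored message is translated. Aurora kinases and polo-like kinase 1 drive centrosome and microtubule organising centre maturation, spindle assembly and the correction of wrong attachments. The checkpoint proteins gather at kinetochores without microtubules and hold back the anaphase-promoting complex, through its activator CDC20, until all chromosomes are attached. In mouse and Xenopus oocytes some messages of this group are known to be recruited for translation when meiosis resumes. Immature oocytes, as measured here, have not yet built a spindle.

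Values below are log2 ratios with A150 as the numerator and A- as the denominator: above 0, the long-tailed fraction gave the stronger relative signal. Normalization centred each array, so a ratio is read against the bulk of its probes, and it does not give the amount of a message or the share of its copies that carry a long tail. In pooled RNA, a change in how many cells carry a message and a change in its amount per cell cannot be told apart. The negative-control level of a channel was set 2 SD above the mean of its 153 negative-control spots. A probe was kept for testing when, on 3 or more arrays, its spot was brighter than this level in either fraction. Of the 15 probes, 12 passed, and they covered 8 genes; BUB1 had no kept probe. A probe can pass through the fraction in which it is bright, so the counts over kept probes describe those probes and do not stand for all members.

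The arrays were not alike. Across 43794 bovine probes, 9.96% to 60.6% were above the negative-control level in A150 and 22% to 48.7% in A-, with the lowest share in A150 on array 2. Between any 2 arrays, r was 0.12 to 0.32 across the 19453 kept probes, which are not independent replicates. Limma called 12 of the 19453 kept probes at an adjusted p under 0.05, all toward A-. None of the 12 was a probe of this set. That count and its side depend on the processing: with no normalization within arrays 300 probes were called toward A150 and 355 toward A-, with only the 2030 probes above the negative-control level in both fractions on all arrays 116 and 128, and with loess but no background correction 0 on either side. By the rule for kept probes given above, signal above the negative-control level was found for 13 of 14 oocyte marker genes. It was found for 6 of 20 cumulus and granulosa markers, and for 7795 of all 15216 named genes. FSHR, AMH and FOXL2 were among the markers with no kept probe. The ratios of these markers compare the fractions of a pool and do not measure cell identity. By the brightest kept probe of a gene, 8 of the 13 oocyte markers had a positive mean (background 50.6% of genes) and 5 a negative one. GDF9, the oocyte growth factor, stood at 1.70 ± 1.07 (SD, n = 4). ZP3, a zona pellucida protein, stood at 1.70 ± 1.01 with further probes at 2.67 and 3.83. DAZL, an RNA-binding protein of germ cells named here after its values were seen, stood at -2.44 ± 2.30 with further probes at -1.59 and -3.43. The 6 cumulus and granulosa markers had means from -0.23 to 0.40 by the brightest kept probe, but another STAR probe, also named after its values were seen, stood at 1.83 ± 0.94 (SD, n = 4). The part of carried-over cumulus cells in the values below was not tested.

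Most spindle kinase probes had positive ratios and the checkpoint probes had mixed ones, and no probe passed the test after adjustment. Of the 12 kept probes 9 had a mean above 0 and 3 a mean below 0, where 48.2% of all kept probes had a mean above 0. At an adjusted p under 0.05, limma called 0 of the 12, where the background was 0% of all kept probes toward A150 and 0.0617% toward A-. With no adjustment, 4 of the 12 had p under 0.05 on the A150 side (background 8.03%) and 0 on the A- side (background 5.45%). These 4 were the probes of AURKC and AURKA, the brighter probe of TPX2 and the brightest probe of AURKB. In 4 of the 12, namely AURKA, AURKC, BUB1B and the brightest AURKB probe, the ratio was positive on all 4 arrays (background 12%). In 1, a dim PLK1 probe, it was negative on all 4 (background 10.1%). AURKC, BUB1B and the brightest AURKB probe were above the negative-control level in A- on only 2 arrays each. They passed the filter through A150, the fraction in which they are high. The counts toward A150 in this paragraph are thus not read as a result about the members.

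**Figure D1:**
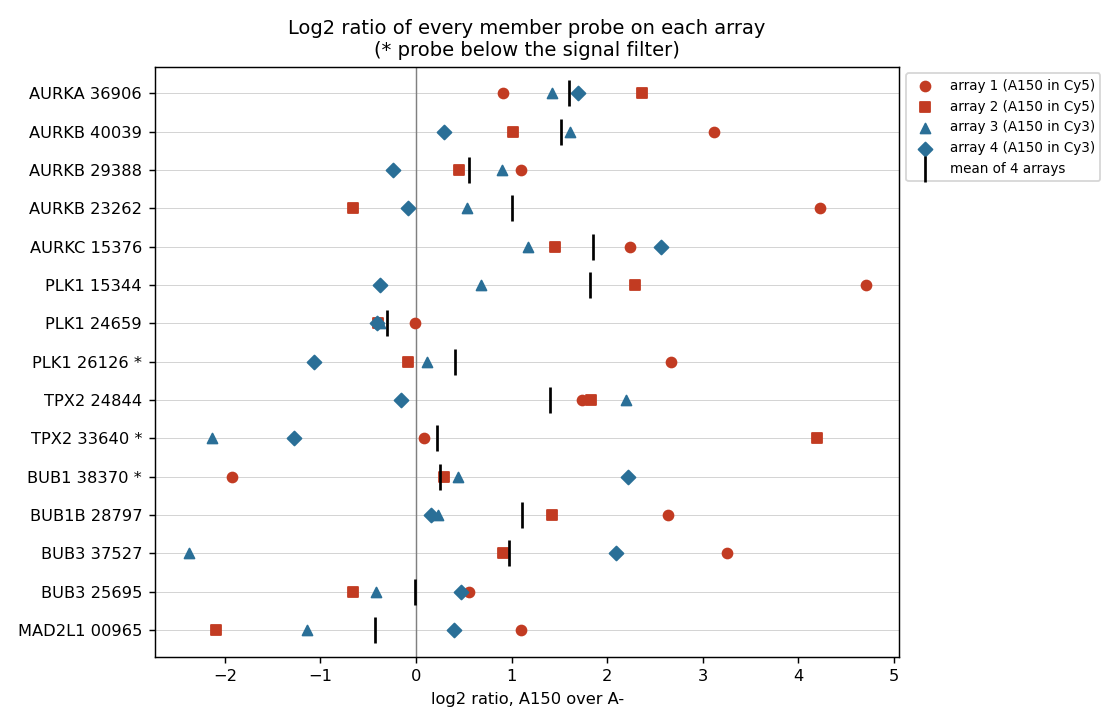
Log2 ratio of A150 over A- (horizontal axis) of each of the 15 member probes (rows, named by gene and the last digits of the probe name) on each array; red marks are arrays with A150 in Cy5, blue marks arrays with A150 in Cy3, the black bar is the mean of 4 arrays, and an asterisk marks a probe that was not kept. AURKA and AURKC lie right of 0 on every array, while PLK1, BUB3 and MAD2L1 spread to both sides of 0.

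AURKA encodes the kinase of spindle poles and centrosomes, which is also known in Xenopus oocytes to phosphorylate the polyadenylation factor CPEB. Its probe EMBV3_36906 had raw spot means of 27692, 24364, 24652 and 28146 in A150 and of 11826, 5388, 7159 and 8492 in A- on arrays 1 to 4. The A150 spot was thus the brighter of the pair on every array, and both spots were above the negative-control level on all 4. After normalization the log2 ratio was 0.91, 2.36, 1.43 and 1.70, lowest on array 1 and highest on array 2. The mean was 1.60 ± 0.60 (SD, n = 4), or 3.03-fold higher in A150, with a 95% interval of 0.78 to 2.41 (limma adjusted p = 0.124). The means in the 2 dye orientations were 1.63 with A150 in Cy5 and 1.56 with A150 in Cy3. Its A150 spots were 9.87 to 83.9 times the negative-control level and its A- spots 1.94 to 13.4 times.

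AURKC encodes the Aurora kinase found mainly in germ cells, where it serves with INCENP, survivin and borealin in the chromosomal passenger complex. Its only probe, EMBV3_15376, had raw spot means of 5051, 3086, 2028 and 4298 in A150 and of 1622, 2659, 1478 and 758 in A-. The A150 spot was above the negative-control level on 4 arrays and the A- spot on 2, arrays 1 and 4. There the A- spot was only 1.36 and 1.20 times that level, and on arrays 2 and 3 it was below it. The size of the ratio thus rests on an A- signal at or near background on all 4 arrays. The log2 ratio was 2.24, 1.45, 1.17 and 2.56 on arrays 1 to 4, with a mean of 1.85 ± 0.66 (SD, n = 4), or 3.62-fold. The 95% interval was 1.001 to 2.71, and AURKC had the smallest p of the set (limma adjusted p = 0.108). Its means in the 2 dye orientations, 1.84 and 1.87, differed least of the 12 kept probes. Of 7795 genes tested with 1 probe each, 3.37% had a higher mean than AURKC and 5.49% a higher mean than AURKA.

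AURKB encodes the Aurora kinase of the passenger complex in somatic cells and had 3 kept probes that did not give the same ratio. The brightest, EMBV3_40039, had log2 ratios of 3.12, 1.01, 1.62 and 0.30 on arrays 1 to 4 and a mean of 1.51 ± 1.20 (SD, n = 4, limma adjusted p = 0.298). It was above the negative-control level in A150 on 3 arrays and in A- on 2, and array 2 was below it in both fractions. Without array 1 the mean of this probe was 0.98. The probe EMBV3_29388 was above that level in both fractions on all 4 arrays and had ratios of 1.10, 0.44, 0.90 and -0.24, with a mean of 0.55 ± 0.59 (SD, n = 4, limma adjusted p = 0.558). The third probe, EMBV3_23262, had ratios of 4.22, -0.66, 0.53 and -0.08, so its mean of 1.003 ± 2.20 (SD, n = 4) rested on array 1, where its A150 spot of 13463 was 40.8 times the negative-control level. On arrays 2 to 4 its A150 spots were at 0.50, 1.41 and 1.01 times that level. Its A- spots there were at 0.83, 0.97 and 0.80 times. Without array 1 the mean of that probe was -0.07, which rests on spots near background. All 3 probes had their highest ratio on array 1, and EMBV3_29388, the probe above the level throughout, had the smallest mean. Its A- spots were at 1.45, 1.21 and 1.02 times the negative-control level on arrays 1 to 3 and 4.06 times on array 4. The size of its ratio on arrays 1 to 3 thus also rests on an A- signal near background.

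TPX2 encodes the microtubule nucleation factor that binds and activates Aurora A and that RAN releases from importin near chromosomes. Its bright probe EMBV3_24844 had raw spot means of 20977, 11068, 24096 and 15096 in A150 and of 5568, 3889, 4374 and 16149 in A-. The fractions were apart on arrays 1 to 3 and nearly equal on array 4, where the A- spot was 25.6 times the negative-control level. The log2 ratio was 1.74, 1.83, 2.19 and -0.16, with a mean of 1.40 ± 1.06 (SD, n = 4), or 2.64-fold, and a 95% interval of 0.22 to 2.58 (limma adjusted p = 0.285). Without array 4 the mean was 1.92. The second probe, EMBV3_33640, was not kept: it was above the negative-control level in 1 array of each fraction, and its ratios ran from -2.13 on array 3 to 4.19 on array 2.

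PLK1 encodes the polo-like kinase that acts on spindle poles, kinetochores and entry into M phase. Its 3 probes disagreed. The brightest, EMBV3_15344, had log2 ratios of 4.70, 2.30, 0.68 and -0.38 on arrays 1 to 4, with a mean of 1.82 ± 2.21 (SD, n = 4, limma adjusted p = 0.469). On array 1 its A150 spot of 16947 was 51.3 times the negative-control level while the A- spot of 1256 was at 1.05 times it, and on array 4 both fractions were well above it, at 6.82 and 5.46 times, with a ratio below 0. On array 2 its A150 spot was at 1.31 times the negative-control level and its A- spot at 0.85 times. The size of the ratio there rests on an A- signal at background. The mean was 3.50 with A150 in Cy5 and 0.15 with A150 in Cy3, the widest gap between orientations among the kept probes. A dye term in the fit gave that gap an unadjusted p of 0.0341 (limma adjusted p = 0.587). Without array 1 the mean was 0.86, and without array 4 it was 2.56. The probe EMBV3_24659 had ratios of -0.01, -0.40, -0.38 and -0.41. Its mean was -0.30 ± 0.19 (SD, n = 4, limma adjusted p = 0.678). Its A150 spots were at 2.65, 0.66, 1.20 and 1.72 times the negative-control level and its A- spots at 1.05 to 1.38 times. These ratios thus rest on spots near background. The third probe, EMBV3_26126, was not kept, with ratios of 2.67, -0.08, 0.11 and -1.07. PLK1 therefore has no single direction in these data.

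**Figure D2:**
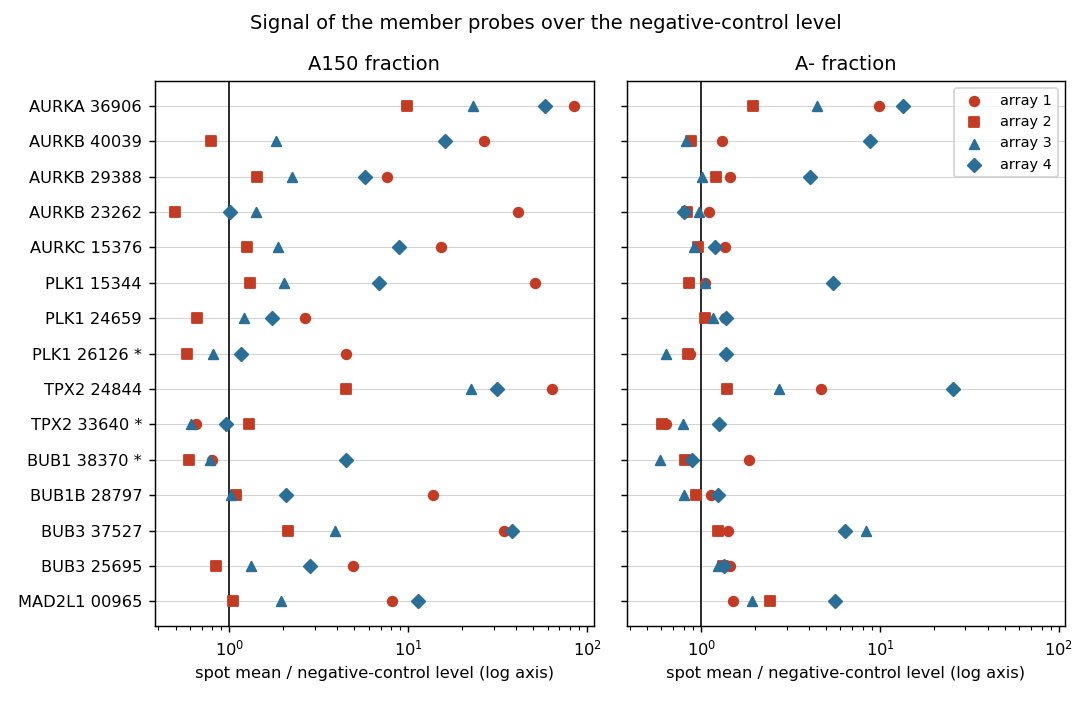
Spot mean divided by the negative-control level of the same channel and array, on a log axis, for the 15 member probes (rows; an asterisk marks a probe that was not kept) in the A150 fraction (left) and the A- fraction (right); each mark is 1 array and the vertical line is the level itself. AURKA and the bright TPX2 probe are right of the line in both fractions on all 4 arrays, whereas AURKC, BUB1B and most PLK1 and AURKB spots lie near the line in A-.

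Among the tested checkpoint genes of the set, BUB1B was the one with a positive ratio on all 4 arrays. It encodes BUBR1, which joins BUB3, MAD2 and CDC20 in the mitotic checkpoint complex. Its probe EMBV3_28797 had log2 ratios of 2.64, 1.42, 0.23 and 0.16, with a mean of 1.11 ± 1.17 (SD, n = 4) and a 95% interval of -0.16 to 2.39 (limma adjusted p = 0.434). The ratio was positive on all arrays but was larger with A150 in Cy5 (mean 2.03) than with A150 in Cy3 (mean 0.20), and the dye term had an unadjusted p of 0.0401 (limma adjusted p = 0.590). The A150 spot was above the negative-control level on 4 arrays, at 1.03 times it on array 3 and 13.7 times on array 1. The A- spot was above it on 2, arrays 1 and 4, at only 1.13 and 1.24 times. The size of the ratio thus rests on an A- signal at or near background on all 4 arrays. Without array 1 the mean was 0.60.

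BUB3 encodes the adaptor that brings BUB1 and BUBR1 to kinetochores. Its bright probe EMBV3_37527 was above the negative-control level in both fractions on all 4 arrays, yet its log2 ratios were 3.26, 0.91, -2.38 and 2.09. The raw spot means were 11368, 5217, 4206 and 18283 in A150 and 1678, 3455, 13510 and 4015 in A-, so on array 3 the A- spot was the brighter by a wide margin and on the others the A150 spot was. The mean was 0.97 ± 2.43 (SD, n = 4, limma adjusted p = 0.742), the widest spread of any kept probe of the set. Without array 3 the mean was 2.09 (limma adjusted p = 0.265), and without array 1 or array 4 it was 0.21 or 0.60. The second probe, EMBV3_25695, had ratios of 0.55, -0.66, -0.42 and 0.47 and a mean of -0.02 ± 0.62 (SD, n = 4, limma adjusted p = 0.991), whose sign changed with the processing.

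MAD2L1 encodes MAD2, the protein that changes fold at unattached kinetochores and binds CDC20. Its probe EMBV3_00965 was above the negative-control level in both fractions on all 4 arrays, with raw spot means of 2660, 2587, 2095 and 5506 in A150 and of 1795, 6708, 3102 and 3536 in A-. The log2 ratio was 1.10, -2.09, -1.14 and 0.40, positive on arrays 1 and 4 and negative on arrays 2 and 3. The mean was -0.43 ± 1.45 (SD, n = 4, limma adjusted p = 0.824), and it was 0.12 without array 2, -0.20 without array 3, -0.94 without array 1 and -0.71 without array 4. A probe that the array annotates with the older symbol MAD2, and which the rule therefore leaves out, gave the same pattern of signs on arrays 1 to 3: EMBV3_32778 had ratios of 1.09, -2.66, -0.94 and -0.12 (mean -0.66 ± 1.57, SD, n = 4, limma adjusted p = 0.739). Neither probe gave MAD2L1 a direction that held on all arrays.

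BUB1 encodes the kinase that marks centromeric histone H2A and so places shugoshin. Its probe EMBV3_38370 was above the negative-control level in 1 array of each fraction, A- on array 1 and A150 on array 4, and was not tested. Its ratios were -1.93, 0.29, 0.44 and 2.21, with opposite signs on the 2 arrays that had signal. No direction can be given for BUB1 at this signal.

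Array 1 carried much of what was high in the set. Of the 12 kept probes, 9 had their highest ratio on array 1, against 23.4% of all kept probes, and 6 had their lowest on array 4, against 23.4%. The median ratio of the 12 probes was 1.99, 0.96, 0.60 and 0.23 on arrays 1 to 4, while the median of all kept probes was -0.07, -0.10, 0.15 and 0.07. On array 1, 11 of the 12 were positive (46.2% of all kept probes), and on array 4, 7 were (53.7% of all kept probes). Of the 12, 9 had a higher mean with A150 in Cy5, against 45.9% of all kept probes; AURKC, MAD2L1 and the dimmer BUB3 probe were the exceptions. The Cy5 channel of array 1 had the lowest negative-control level, 330, of the 4 A150 channels. The part of that channel in the array 1 values was not tested. The number of the 12 probes toward A150 with an unadjusted p under 0.05 was 2 without array 1, 2 without array 2, 3 without array 3 and 5 without array 4. The share of all kept probes without each array is not given here, so these counts are not read as a result about the members.

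**Figure D3:**
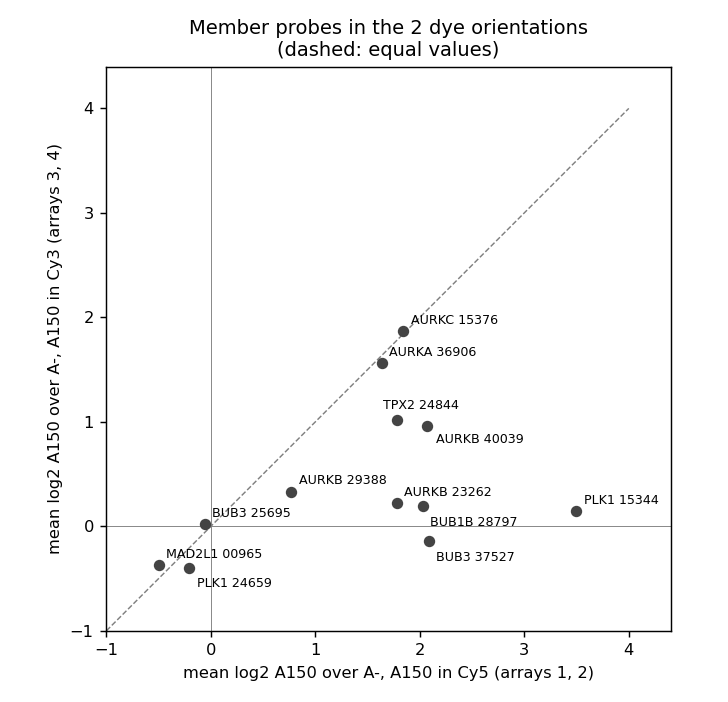
Mean log2 ratio of A150 over A- of the 12 kept member probes on the 2 arrays with A150 in Cy5 (horizontal axis) and on the 2 arrays with A150 in Cy3 (vertical axis); the dashed line marks equal values. AURKC (1.84 and 1.87) and AURKA (1.63 and 1.56) lie on the line, and the bright PLK1 probe (3.50 and 0.15) lies farthest below it.

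Differences between members were set side by side with the brightest kept probe of each gene. The test flipped the signs of the 4 array differences (an exact permutation test, two-sided), and its smallest possible p is 0.125, so 0 of the 5 pairs compared could pass. AURKA minus AURKC was -0.26 ± 1.02 (SD, n = 4, exact p = 0.75, adjusted p = 1 over 5 pairs), with AURKA the higher on 2 of 4 arrays. AURKA minus AURKB was 0.09 ± 1.70 and AURKB minus AURKC was -0.34 ± 1.40, and each was positive on 2 of 4 arrays. The AURKB probe in these pairs was below the negative-control level in both fractions on array 2. With EMBV3_29388, the AURKB probe above that level throughout, AURKA minus AURKB was 1.05 (exact p = 0.25). The A- spots of EMBV3_29388 were near that level on arrays 1 to 3. AURKA minus TPX2, its activator, was 0.20 ± 1.27 and positive on 2 of 4 arrays. The largest difference was that of BUB1B minus MAD2L1, 1.55 ± 1.54 (SD, n = 4), positive on 3 of 4 arrays (exact p = 0.25, adjusted p = 1 over 5 pairs). By mean the order from high to low was AURKC, PLK1, AURKA, AURKB, TPX2, BUB1B, BUB3 and MAD2L1; this order is a description, since the test of the pairs could not reach its threshold. BUB1 and TTK entered no pair, as they had no kept probe.

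**Figure D4:**
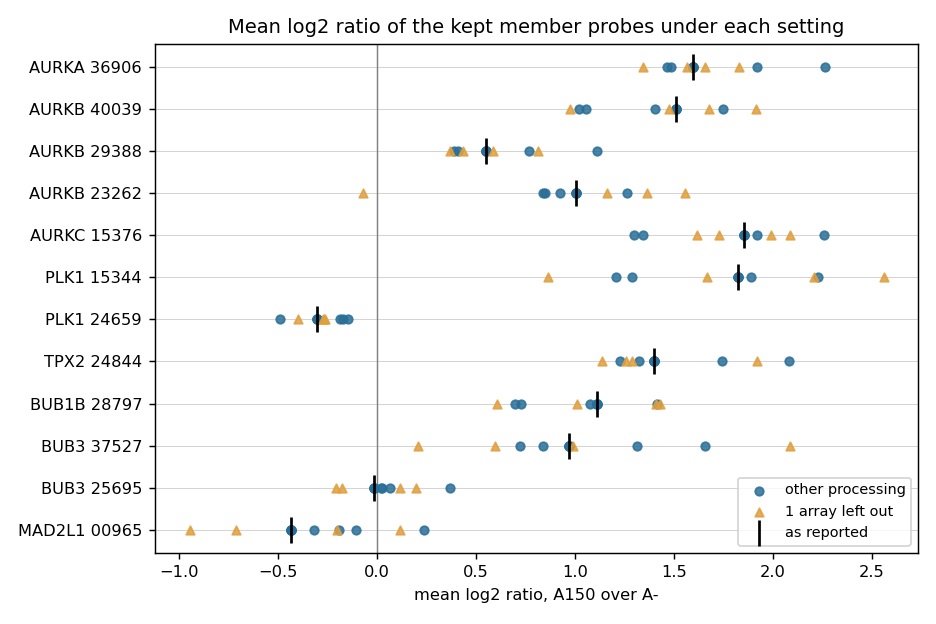
Mean log2 ratio of A150 over A- of the 12 kept member probes (rows) as reported (black bar), under other processing (blue circles) and with 1 array left out (orange triangles). AURKA stays between 1.35 and 2.26 and AURKC between 1.30 and 2.26, while MAD2L1, the dimmer BUB3 probe and an AURKB probe have values on both sides of 0.

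The genes that work with these kinases did not share one direction. Of 33 partner and substrate genes 27 had a probe and 19 were tested; 11 had a positive mean (background 50.6%) and 8 a negative one, and 5 were positive (background 13.7%) and 1 negative (background 8.89%) on all 4 arrays. Limma called 0 of the 19 at an adjusted p under 0.05 (background 0% of genes on either side), and unadjusted p lay under 0.05 for 4 on the A150 side (background 9.72%) and 1 on the A- side (background 4.19%). The median of gene means was 0.16, beside 0.01 for all 7795 genes and 1.46 for the 8 tested genes of the set, which was 0.92 without array 1. Among probes above the negative-control level in both fractions on all arrays this order turned, with medians of 1.26 for the partners and 0.97 for the set, beside 0.31 for all genes. That filter left 956 genes in all and 17 of the 59 tested genes of the set and of the partner and kinetochore lists. AURKC, PLK1 and BUB1B were not among them, so these medians are over fewer genes than those above. Over all 19 tested partners, the median was -0.08 without array 1 and 0.46 without array 4. TACC3, which Aurora A phosphorylates to hold spindle microtubules together, stood at 2.28 ± 0.84 (SD, n = 4, limma adjusted p = 0.120), with 2.34, 2.34, 3.25 and 1.20 on arrays 1 to 4; its A- spot was above the negative-control level on 2 arrays. BIRC5, which encodes survivin of the passenger complex, stood at 1.38 ± 0.87 (SD, n = 4) and a second probe at 0.27. CDCA8, which encodes borealin of the same complex, stood at 1.19 ± 1.504 and its second probe at 1.87, while INCENP had no kept probe. KPNA2, an importin that binds TPX2, stood at 1.34 ± 1.07 with a second probe at -1.48. NUSAP1, a microtubule bundling protein, stood at 1.44 ± 0.95 with a second probe at -0.49. On the A- side DLGAP5, a kinetochore fibre protein and Aurora A substrate, stood at -2.65 ± 1.69 (SD, n = 4, limma adjusted p = 0.188), but its second probe stood at 1.32. BORA, the PLK1 activator, had no probe under that symbol.

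Kinetochore and checkpoint genes outside the set were also divided. Of 47 listed genes 42 had a probe and 32 were tested, with 21 positive (background 50.6%) and 11 negative means. On all 4 arrays 5 were positive (background 13.7%) and 3 negative (background 8.89%). The median of gene means was 0.42, which was 0.23 without array 3. Limma called 0 of the 32 at an adjusted p under 0.05 (background 0% of genes on either side). Unadjusted p lay under 0.05 for 4 on the A150 side (background 9.72%) and 3 on the A- side (background 4.19%). PTTG1, which encodes securin, the inhibitor of separase, had ratios of 1.24, 2.14, 1.34 and 1.37, a mean of 1.52 ± 0.42 (SD, n = 4, limma adjusted p = 0.123) and a second probe at 1.09; its spots were above the negative-control level in both fractions on all 4 arrays. ZWILCH and ZW10, subunits of the complex that brings dynein and MAD proteins to kinetochores, stood at 1.32 ± 0.81 and 1.001 ± 0.86. The A- spot of ZW10 was above the negative-control level on 2 arrays. CENPM stood at 0.90 ± 0.66 with a second probe at -0.04. On the A- side were 3 proteins of the inner kinetochore: CENPO (-2.07 ± 2.00, with further probes at -1.21 and -0.48), ITGB3BP (-1.86 ± 1.39, with a second probe at -0.03) and CENPC (-1.53 ± 1.36). The A150 spot of ITGB3BP was above the negative-control level on 2 arrays. CDC20, the target of the checkpoint, stood at 1.17 ± 2.63, with 1.97, 3.74, -2.49 and 1.46 on arrays 1 to 4. Its spot was above the negative-control level in A150 on 3 arrays and in A- on only 1. MAD1L1, the partner of MAD2, had no kept probe.

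**Figure D5:**
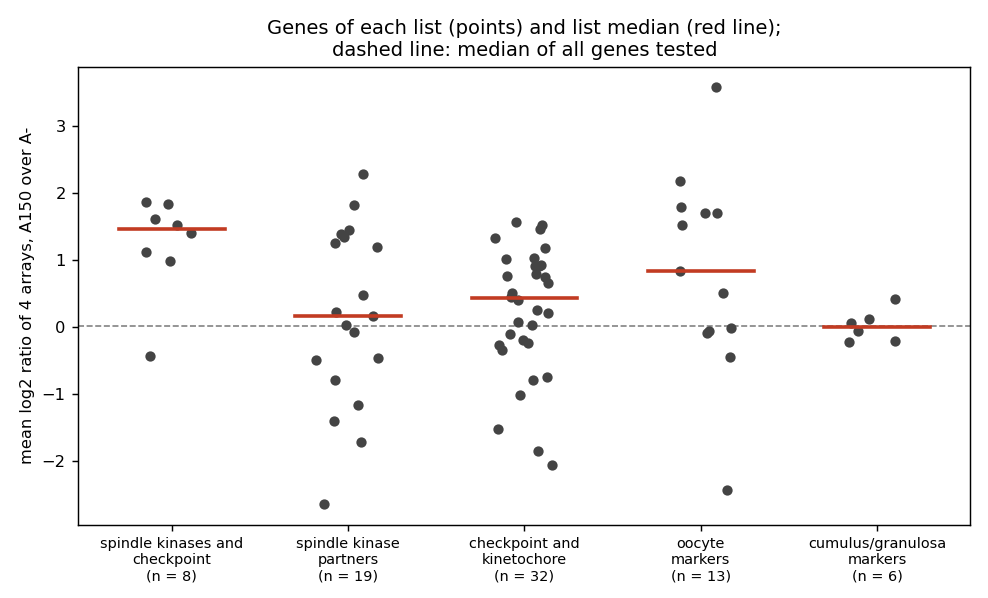
Mean log2 ratio of A150 over A- over 4 arrays (vertical axis) of the tested genes of each list (points, spread sideways for visibility), with the list median (red line) and the median of all genes tested (dashed line). Of the 8 tested genes of the set 7 lie above 0, with a median of 1.46, and the partner and kinetochore lists spread to both sides, with medians of 0.16 and 0.42.

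The tested genes whose ratios lay nearest to those of AURKC, the member with the smallest p, were MRPL20, TRAPPC4 and TMEM258. Their Euclidean distances over the 4 log2 ratios were 0.292, 0.454 and 0.488. MRPL20, a protein of the mitochondrial ribosome, had ratios of 2.39, 1.30, 0.96 and 2.57 on arrays 1 to 4. TRAPPC4, a subunit of a vesicle tethering complex, stood at 1.76 ± 0.56 (SD, n = 4) and TMEM258, a subunit of the oligosaccharyltransferase, at 1.75 ± 0.54. The likeness is over 4 arrays only.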

How the data were processed

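The deposited file of each array gives intensity, per the file headers, as the brightness of every spot and of its surroundings in the 532 nm (Cy3) and 635 nm (Cy5) scans, without subtraction. No source used here names the scanner. Per the labels' protocols, RNA went through WT-Ovation One-Direct amplification and Universal Linkage System labelling; amplification of small amounts can favour some transcripts. In each file 22 rows name no probe and were dropped. The deposited table of the series holds the authors' log2 ratios. Against A150 over A- after loess alone, without background correction, its 4 columns had r of 0.996 to 0.999, with slopes of 0.837 to 1.22 and medians from -0.01 to 0.02, so the direction and the centring are known and the reason for the slopes is not. The labels name the fraction in each dye, which sets the direction of every ratio.

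Spot means were corrected with normexp (offset 50), normalized by loess within each array with control spots at weight 0, and turned to A150 over A-, in limma 3.58.1 under R 4.3.3. Ratios were tested against 0 with limma (lmFit, eBayes, Benjamini-Hochberg over all kept probes, or over all genes with the brightest kept probe of each). The pairing of the fractions lies in the ratio. No spot of a member was saturated. Symbols came from the platform annotation, with 1524 updated through RefSeq synonyms (assembly ARS-UCD2.0) for the lists of partners. Probe sequences were not used here, so binding to paralogues such as AURKB and AURKC was not checked, and no coordinates are given. The number of arrays limits the precision, and p-values hold the pool and array spread in one. The members, the lists and the rule for named genes (all members; in each list up to 4 genes a side with the smallest p and the same sign on all arrays; passenger complex, BORA, MAD1L1 and CDC20 in any case; the 3 genes nearest to the member with the smallest p; GDF9 and ZP3) were chosen with earlier results of these data known.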

Additional observations from a re-analysis of the deposited data

Results flagged for a closer look

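Of 20 sets of 4 values examined for an array apart from the others (15 member probes and 5 pairs), 1 stood out: the log2 ratio of the PLK1 probe EMBV3_24659 was -0.00998 on array 1 against -0.40, -0.38 and -0.41 on the others, a gap of 0.924 of the whole range, above Dixon's critical value for 4 values. Chance marks about 1 in 20 such sets, and the gap is small in size. The spots of this probe were at 0.66 to 2.65 times the negative-control level. The arrays that drive the bright PLK1 and AURKB probes did not stand apart by this measure.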

How the results depend on the processing

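The number of member probes called stayed at 0 under all 13 alternatives, while the background moved. Over all probes the calls toward A150 and A- were 0 and 0 in most alternatives, 300 and 355 of 19453 when arrays were not normalized, 116 and 128 of 2030 when each probe had to exceed the negative-control level in all 8 channels, and 76 and 123 of 19453 on single channels without a block. The smallest adjusted p of a member probe was 0.0552, for AURKA under the 8-channel filter. AURKA ranged from 1.35 to 2.26 (adjusted p 0.0552 to 0.341) and AURKC from 1.30 to 2.26 (adjusted p 0.0729 to 0.311), and neither changed sign. Of the member probes 5 met the filter, and AURKC was not among them. With the array as a replicate block on single channels the values equalled those of the ratio fit, and without the block 0 member probes were called.

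The dimmer BUB3 probe, -0.02 as reported, was 0.066 without background correction, 0.37 with median centring, 0.0269 without normalization within arrays, 0.0239 in the authors' deposited log2 ratios, and -0.20 to 0.20 with 1 array left out. MAD2L1 was 0.24 with median centring and -0.94 to 0.12 with 1 array left out, and the AURKB probe EMBV3_23262 was -0.0691 to 1.56. AURKA minus AURKC was 0.12 without background correction, 0.00213 with median centring or without normalization, 0.19 in the authors' deposited log2 ratios and -0.64 to 0.10 with 1 array left out. In the same range AURKA minus AURKB was -0.35 to 0.85 (1.05 under the 8-channel filter, with another AURKB probe), AURKA minus TPX2 -0.35 to 0.54 and AURKB minus AURKC -0.75 to 0.30.

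The median of the partner list, 0.16, was 1.26 under the 8-channel filter, where the members' median was 0.97 and that of all genes 0.31. It was -0.0205 with the mean of all kept probes of a gene and -0.0778 to 0.46 with 1 array left out. Without normalization within arrays, which moved the median of all genes to -0.38, limma called 1 list gene, TACC3. The cause of these changes was not tested.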
